A study of Rattus norvegicus with 6 samples.

Results

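The transcripts described here are 7 genes grouped as neutrophil and granule genes: S100a8, S100a9, Stfa2l2, Lcn2, Fcnb, Mpo and Elane. They were selected with their measured values over the stages already known, so their levels are given as a description, with no test. Of the 14217 rat genes with a probe set annotated to that gene alone, 5 were members. S100a8, S100a9, Stfa2l2, Lcn2 and Fcnb had 1 such probe set each, so no second probe set could serve as a check, and Mpo and Elane, which had none, were not analysed here. The tissue was the lateral ventricle choroid plexus of untreated Sprague-Dawley rats at embryonic day 19 (E19), postnatal day 2 (P2) and in the adult. Each stage was represented by 2 pools of plexuses, and each pool was hybridised to 1 Affymetrix rat genome array. A pool held 6 to 10 plexuses, the adult pools came from fewer animals than the developing ones, the adult donors were males according to the methods, and the sex of the fetuses and pups was not given.

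Neutrophils are short-lived phagocytes that carry their weapons in granules filled in sequence while the cells mature in haematopoietic tissue. Primary (azurophil) granules hold myeloperoxidase (Mpo), neutrophil elastase (Elane) and defensins. Specific granules, made later, hold lipocalin 2 (Lcn2), which binds the siderophores that bacteria use to collect iron. S100a8 and S100a9 pair to form calprotectin, a cytosolic protein that binds calcium and zinc, and stefins such as Stfa2l2 inhibit cysteine cathepsins. Fcnb encodes ficolin B, a pattern-recognition lectin of the myeloid lineage in rodents. None of these genes is strictly confined to neutrophils: monocytes make calprotectin, and epithelia, in mice including that of the choroid plexus during systemic inflammation, make Lcn2.

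The values were MAS5 signals on a linear scale, in arbitrary units, scaled array by array. The array medians ranged from 100.4 to 125.9 units and 50.1 to 53.6% of probe sets reached 100 units, and a signal under 100 units was treated as not measured above the low range. S100a8, S100a9, Stfa2l2 and Lcn2 reached a stage mean of 100 units and Fcnb did not. Folds are ratios of geometric means. Where a pool of the lower stage was under 100 units it was set to 100 units, which makes the fold a lower bound, and no fold is given where the higher stage did not exceed that bound.

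S100a8, S100a9 and Stfa2l2 were highest at E19, lower at P2 and under 100 units in both adult pools. S100a9 reached 429.8 and 459.6 units at E19, 82.6 and 217 units at P2, and 54.3 and 30.6 units in the adult. Its mean was 445 ± 21.0 units at E19, 149.6 ± 94.8 units at P2 and 42.4 ± 16.7 units in the adult (SD, n = 2 each). The readings of the stages did not overlap, though P2 pool 1 and both adult pools were in the low range. The E19 level was at least 4.44-fold and the P2 level at least 1.34-fold above the adult one. S100a8, its calprotectin partner, gave 239.8 and 242 units at E19, 69.4 and 140.0 units at P2, and 22.2 and 2.09 units in the adult. The E19 pools almost coincided (241 ± 1.84 units), those of P2 did not (105 ± 49.9 units), and the E19 level was at least 2.41-fold above the adult one. The P2 geometric mean of S100a8 was below 100 units, so no fold over the adult is given.

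Stfa2l2, a stefin A gene, gave 386 and 467 units at E19, 37.4 and 126 units at P2, and 1.03 and 10.8 units in the adult. Its E19 mean of 427 ± 57.5 units was at least 4.25-fold above the adult level, and its P2 geometric mean was also below 100 units. In P2 plexuses the signal was below that of E19 for all 3 genes, at least 3.79-fold for Stfa2l2, 3.02-fold for S100a9 and 2.04-fold for S100a8, with 1 of 2 P2 pools under 100 units for each. The size varied with the P2 pool used. With low values left as read and without P2 pool 1, the log2 difference was -1.76 for Stfa2l2, -1.04 for S100a9 and -0.78 for S100a8. Without P2 pool 2 it was -3.50, -2.43 and -1.80, which rest on P2 pool 1, under 100 units for all 3 genes. Both E19 pools lay above both adult pools for 3 of the 5 genes measured, where 43.6% of the 17808 probe sets tested did so. Both P2 pools read above both adult pools for the same 3 genes, against 41.2% of probe sets. That order was not resolved, since P2 pool 1 and both adult pools were under 100 units for each. With values under 100 units set to 100, P2 minus adult was 0.17 for Stfa2l2, 0.56 for S100a9 and 0.24 for S100a8 (log2). Both P2 pools lay below both E19 pools for these 3, against 31.6%.

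**Figure D1:**
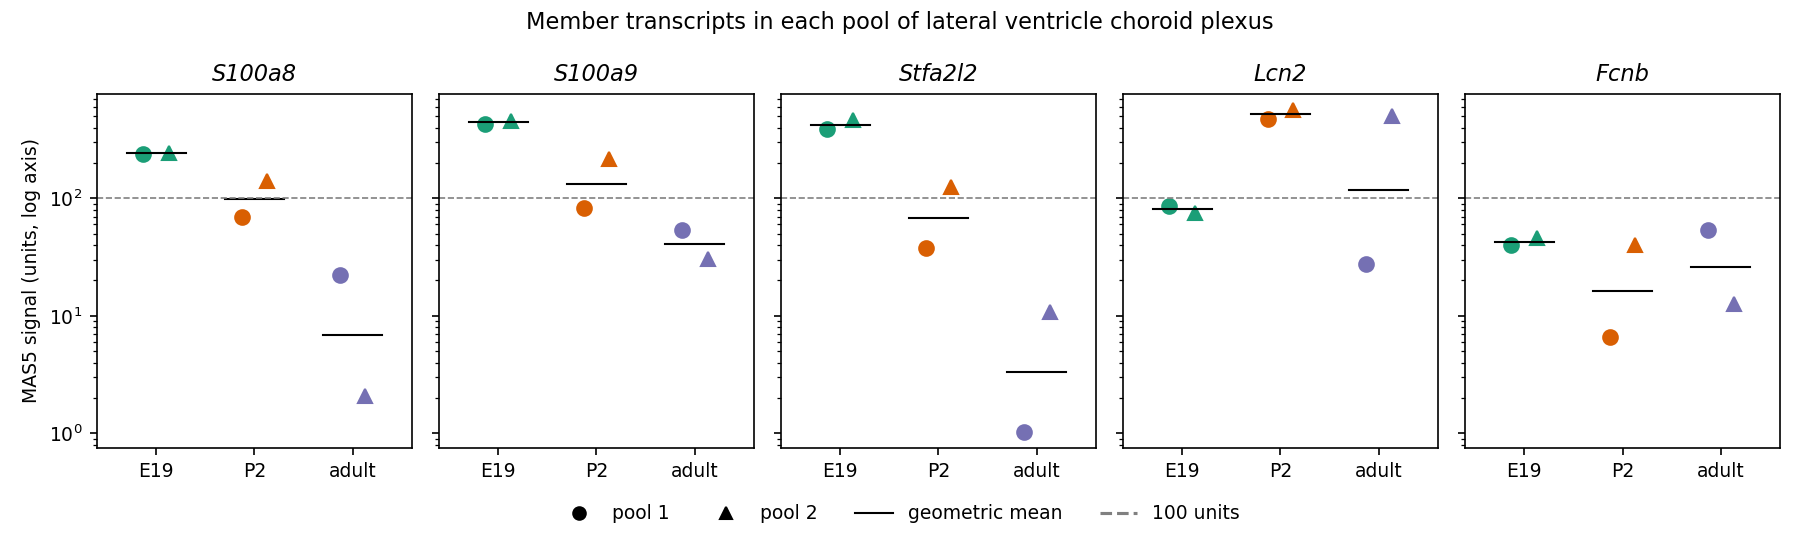
MAS5 signal (arbitrary units, log axis) of the 5 genes measured, in E19, P2 and adult pools; circles are pool 1, triangles pool 2, bars the geometric mean of both pools and the dashed line 100 units. S100a8, S100a9 and Stfa2l2 are highest at E19, with P2 pool 1 and both adult pools under the line. Lcn2 is high in both P2 pools and in adult pool 2 (503 units), and Fcnb stays under 100 units on every array.

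Lcn2 followed another course. It gave 86.0 and 75.2 units at E19, 475 and 569.5 units at P2, and 27.6 and 503 units in the adult. Both P2 pools lay above both E19 pools, as for 30.9% of probe sets, and the P2 level was at least 5.2-fold above that of E19. The adult pools lay far apart, 1 in the low range like both E19 pools and 1 near the highest value of the gene. The adult mean of 265 ± 336 units thus describes neither pool. P2 exceeded the adult by 2.14 on the log2 scale with all pools, and by 4.24 without adult pool 2 and 0.05 without adult pool 1. With values under 100 units set to 100 it exceeded the adult by 1.21. Fcnb gave 40.0 and 45.6 units at E19, 6.55 and 40.2 units at P2, and 53.5 and 12.7 units in the adult, and values this low have no order. The median log2 difference of the 5 genes was 3.45 for E19 minus adult, 2.14 for P2 minus adult and -1.40 for P2 minus E19, beside 0.05, 0.04 and 0.00 over all probe sets tested. These medians are the values of single genes, S100a9, Lcn2 and Fcnb in turn. The value of Lcn2 hung on the adult pool and that of Fcnb lay in the low range. The medians for P2 minus adult and P2 minus E19 therefore do not describe a shared change. With values under 100 units set to 100 the median was 1.27, 0.24 and -1.03. Without P2 pool 1 the P2 minus E19 median was -0.78, and without P2 pool 2 it was -2.43.

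The promoters of S100a9 and Stfa2l2, whose signals moved together, and of Lcn2, whose signal did not, are shown as examples. They are the 250 bases before the transcription start in RefSeq, build GRCr8, written 5′ to 3′ along the gene. Of the 7 genes, 5 had an entry, and S100a8 and Elane had none. Capitals mark the letters of 3 short motifs on either strand: GAGGAA, the core of sites bound by the myeloid factor PU.1; TTNNGNAA, a loose form of the C/EBP site; and TGTGGT, the core of the RUNX site.
S100a9, chr2:178490623-178490872, minus strand: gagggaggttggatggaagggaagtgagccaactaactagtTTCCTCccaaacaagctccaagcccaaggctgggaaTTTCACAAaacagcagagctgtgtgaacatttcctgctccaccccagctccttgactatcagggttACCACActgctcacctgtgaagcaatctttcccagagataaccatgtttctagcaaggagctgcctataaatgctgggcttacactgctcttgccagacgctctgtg
Stfa2l2, chr11:78003240-78003489, plus strand: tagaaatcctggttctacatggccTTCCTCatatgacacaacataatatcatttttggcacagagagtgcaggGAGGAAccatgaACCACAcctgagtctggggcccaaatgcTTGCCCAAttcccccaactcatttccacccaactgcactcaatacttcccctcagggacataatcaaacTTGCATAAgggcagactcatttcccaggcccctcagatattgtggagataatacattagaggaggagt
Lcn2, chr3:36081781-36082030, minus strand: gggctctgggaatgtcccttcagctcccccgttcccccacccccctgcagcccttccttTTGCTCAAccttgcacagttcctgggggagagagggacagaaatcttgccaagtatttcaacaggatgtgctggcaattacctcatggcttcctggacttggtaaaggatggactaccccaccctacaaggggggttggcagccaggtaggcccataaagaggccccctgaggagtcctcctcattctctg

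In a window of 300 bases that also took in the first 50 bases after the start, GAGGAA was found in 27.5% of 27457 rat promoters, TTNNGNAA in 40.8% and TGTGGT in 17.0%. S100a9 and Stfa2l2 held all 3. Stfa2l2 had 2 copies of GAGGAA and 2 of TTNNGNAA, and S100a9 had 2 of TTNNGNAA, 1 of them after the start. Lcn2 held TTNNGNAA before the start, GAGGAA only just after it, on the opposite strand, and no TGTGGT. Mpo held GAGGAA and TTNNGNAA, and Fcnb 2 copies of TTNNGNAA. Of 2 relatives with signals also highest at E19, Stfa3 held TTNNGNAA and TGTGGT but no GAGGAA, and S100a14 held GAGGAA alone. A match of this length is a description of the letters and does not show that a factor binds there. In the gene order of the same build, S100a8 and S100a9 are direct neighbours on chromosome 2, next to S100a7a and Pglyrp4 and close to S100a4, S100a5 and S100a6. Stfa2l2 lies among other stefin genes on chromosome 11, with Stfa3 4 positions before it.

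At P2 the readings of S100a8, S100a9 and Stfa2l2 differed more between the pools than those of most genes. P2 pool 2 exceeded P2 pool 1 by 3.36-fold for Stfa2l2, 2.62-fold for S100a9 and 2.02-fold for S100a8, and by 1.20-fold for Lcn2. Among the 10005 genes at 100 units or more in at least 1 P2 pool, these ranked 6, 10 and 23 by their excess in pool 2, while Lcn2 ranked 922. Only 71 of these genes differed over 2-fold between the P2 pools, and the median absolute log2 difference was 0.13. All these ratios and ranks used the values as read. P2 pool 1 was in the low range for Stfa2l2, S100a9 and S100a8 (37.4, 82.6 and 69.4 units), so their ratios and ranks were not resolved. At E19 the pools agreed within 1.21-fold for all 3 genes. The summed signals of the macrophage and monocyte list were 5754 units in P2 pool 2 and 6457 units in P2 pool 1, but its genes did not move as one. Mrc1 (964 and 614 units in pools 1 and 2) and C1qa (665 and 422 units) were lower in pool 2. Lyve1 (1402 and 1556 units) and Cd14 (608 and 680 units) were higher there. The part of these cells in the difference between the P2 pools was not tested.

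**Figure D2:**
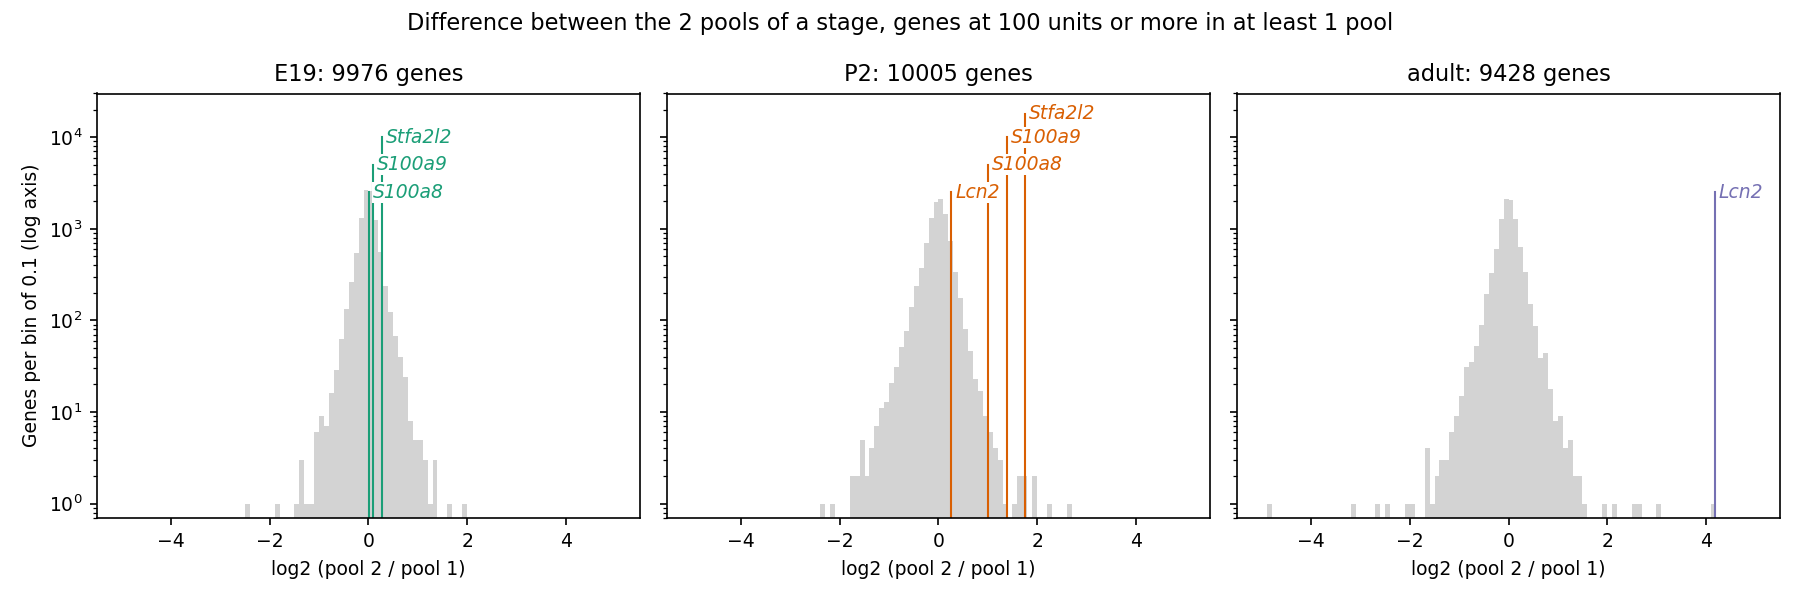
Histogram of the log2 ratio of pool 2 to pool 1 for all genes at 100 units or more in at least 1 pool of the stage (number of genes per bin of 0.1, log axis), with the members marked by coloured lines. Stfa2l2, S100a9 and S100a8 lie at 1.75, 1.39 and 1.01 in P2, and Lcn2 lies at 4.19 in the adult. In each case the pool 1 value was under 100 units and was used as read.

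In the adult, Lcn2 read 18.2-fold higher in pool 2 (503 units) than in pool 1 (27.6 units). This was the largest excess of pool 2 among 9428 genes, 63 of which differed over 2-fold. By size alone it was second to Nkain2, a gene named after its values were seen, which gave 1024 units in pool 1 and 34.8 units in pool 2. Both ratios rest on 1 pool in the low range and were taken on values as read. Their sizes and ranks were therefore not resolved. Other acute phase genes were read in the same pools. Saa3, an acute phase apolipoprotein, gave 10.7 and 18.0 units, Socs3, an inducible inhibitor of cytokine signalling, 84.2 and 7.46 units, and complement C3 496 and 561 units in adult pools 1 and 2. Of these, C3 alone was above 100 units, and its pools were close. No other member reached 100 units in either adult pool.

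The neutrophil label was checked against genes that define the cell, on a list of 63 other genes of neutrophil granules, surface and signalling of which 40 had a probe set and 18 were under 100 units on every array. The 18 included 11 markers closest to the lineage, which were picked with the values known and had a highest single value of 69.3 units. They comprised Csf3r, the receptor for the granulocyte growth factor, the chemokine receptors Cxcr1 and Cxcr2, the granule proteins Camp, Mmp8 and Mmp9, the integrin chain Itgam, and the defensins Np4, RatNP-3b, Defa5 and Defa24. Mmp9, the gelatinase of the tertiary granules, gave 53.8 and 65.6 units at E19, 26.7 and 37.9 units at P2, and 1.60 and 3.98 units in the adult. RatNP-3b gave 62.6 and 45.4 units at E19, 16.6 and 29.8 units at P2, and 16.7 and 7.59 units in the adult. Both thus read highest at E19, as S100a8, S100a9 and Stfa2l2 did, but in the range where values were not treated as having an order. Csf3r gave 7.99 and 15.6 units at E19, 21.3 and 13.7 units at P2, and 39.3 and 45.3 units in the adult.

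Pglyrp1, a bactericidal protein of the specific granules, did reach the measured range, with 139 and 126 units at E19, 167 and 139.9 units at P2, and 52.4 and 93.3 units in the adult. It was at least 1.32-fold above the adult at E19 and 1.53-fold at P2 (limma, adjusted p = 0.0431 and 0.0256), the E19 call being lost without any one array but adult pool 2 and the P2 call without any one of the E19 or P2 pools (adjusted p up to 0.156). Ncf4, a subunit of the phagocyte oxidase, was at least 1.45-fold above the adult at E19 (limma, adjusted p = 0.0255), a call lost without E19 pool 2 or adult pool 2 (adjusted p up to 0.102). Alox5ap, which serves leukotriene synthesis in myeloid cells, was at least 1.06-fold above it at E19 and 1.14-fold at P2 (limma, adjusted p = 0.00291 and 0.00254). The neutrophil label could be neither borne out nor refuted on these arrays. The 11 markers in the low range were picked with the values known, so they cannot decide it, and Pglyrp1 was measured. Of the 40 listed genes with a probe set, 18 were under 100 units on every array. S100a8, S100a9 and Stfa2l2 are named here as calprotectin and stefin transcripts, and Lcn2 and Fcnb by their gene names. In whole tissue, fewer cells of a type and less RNA per cell cannot be told apart.

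**Figure D3:**
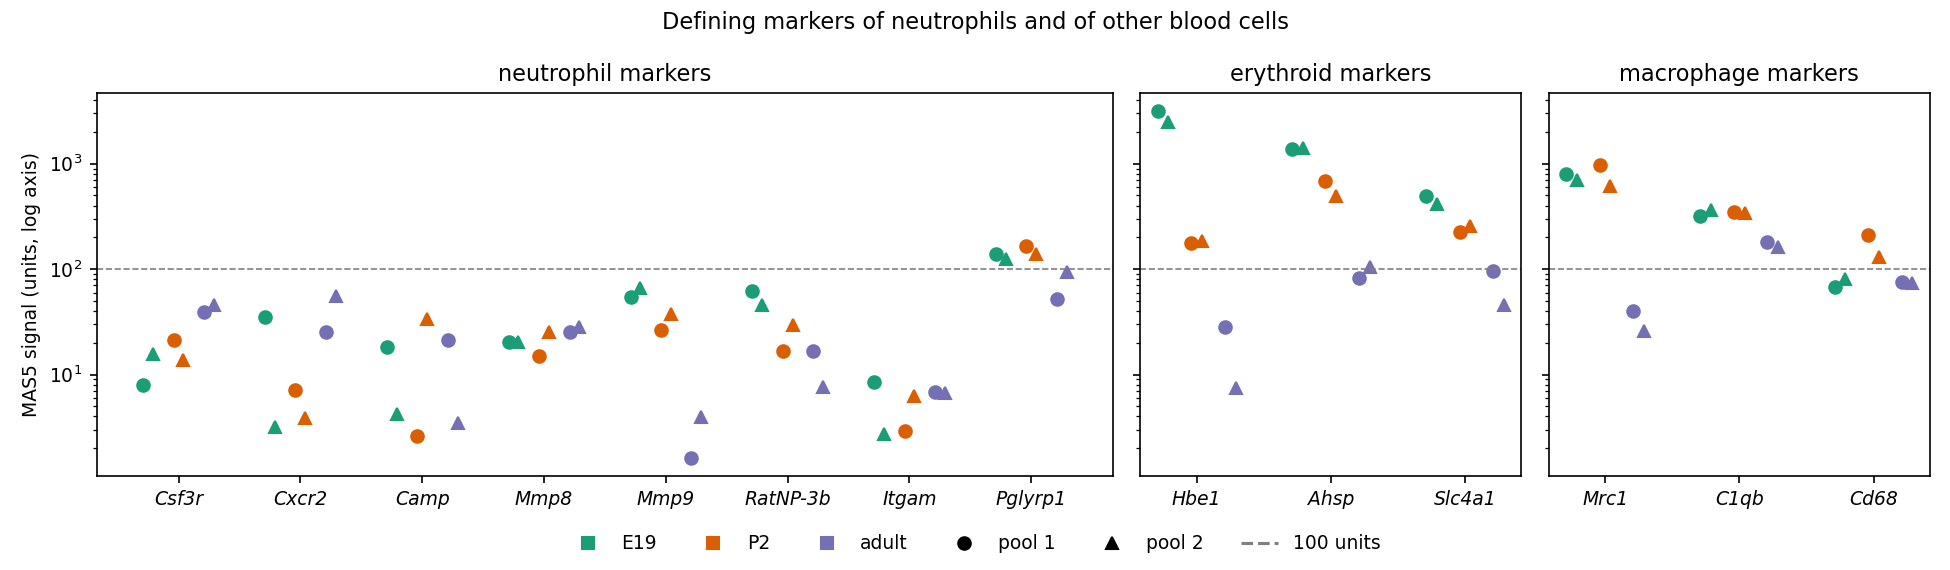
MAS5 signal (arbitrary units, log axis) of neutrophil, erythroid and macrophage markers, by gene; colour gives the stage (E19, P2, adult), circles pool 1, triangles pool 2, and the dashed line 100 units. Of the 8 neutrophil markers plotted, Pglyrp1 alone rises above the line, at E19 and P2, as do Hbe1, Ahsp, Slc4a1, Mrc1 and C1qb.

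Of the same 63 genes, 20 were tested with limma over all 6 arrays and 17808 probe sets, with Benjamini-Hochberg adjustment. Between E19 and the adult, 8 were higher and 6 lower at E19 at an adjusted p under 0.05, where 30.4% of all probe sets were higher and 24.2% lower. Between P2 and the adult, 10 were higher and 5 lower at P2, where 27.4% of all probe sets were higher and 21.8% lower. Between P2 and E19, 4 were higher and 0 lower at P2, where 3.62% of all probe sets were higher and 3.5% lower. At an unadjusted p under 0.05 (limma), 11 were higher and 1 lower at P2 than at E19. The median log2 differences were 0.16, 0.55 and 0.33, beside 0.05, 0.04 and 0.00 over all probe sets. The p-values measure the spread between pools only, with 2 pools a stage.

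Of the counts over the adult, centring each array on its median gave 5 genes higher at E19, and the loss of E19 pool 2 also gave 5. The number lower at P2 was 2 without P2 pool 1, and 3 without P2 pool 2 or either adult pool. None of the P2 minus E19 calls was left without any one of the E19 or P2 pools. Nearly all such calls over all probe sets were lost in the same way, so the loss is not particular to this list. The same centring turned the balance over all probe sets, with 3498 above and 6854 below the adult at E19 in place of 5417 and 4315, and 3202 higher and 6423 lower at P2 in place of 4874 and 3891, and shifted the median log2 difference of E19 minus adult to -0.23.

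The largest increases in this list were in genes that many cell types use. Anxa1, an anti-inflammatory phospholipid-binding protein also found in epithelia, gave 894 and 903 units at E19, 1116 and 1072 units at P2, and 111 and 126 units in the adult. Its signal was 7.59-fold the adult one at E19 and 9.23-fold at P2 (limma, adjusted p = 8.1e-05 and 8.55e-05). Cyba, the membrane subunit that phagocyte and other NADPH oxidases share, gave 1647 and 1555 units at E19, 989 and 1175 units at P2, and 293 and 286 units in the adult. It was thus 5.53-fold and 3.72-fold above the adult at E19 and P2 (adjusted p = 0.00015 and 0.000372, limma). Cybb, the catalytic partner of Cyba in phagocytes, was 1.79-fold lower at E19 than in the adult (limma, adjusted p = 0.0072), a call lost when all its probe sets were averaged (adjusted p = 0.149). Cd24, a surface glycoprotein of immature cells, exceeded its adult signal 4.39-fold in E19 and 6.05-fold in P2 plexuses (limma, adjusted p = 0.000331 and 0.000263).

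Among other genes of phagocytes, Lyz2, Fcgr3a and Chi3l1 were lower in developing plexuses and C5ar1 was higher. Lyz2, the lysozyme of neutrophils and macrophages, gave 956 and 952 units at E19, 1988 and 1421 units at P2, and 6048 and 6018 units in the adult. Its signal was thus 6.32-fold below the adult one at E19 and 3.59-fold below it at P2 (limma, adjusted p = 0.000334 and 0.00119). The Fc receptor gene Fcgr3a gave 39.9 and 46.6 units at E19, 91.2 and 80.3 units at P2, and 235 and 201 units in the adult, so that E19 and P2 were each at least 2.18-fold below the adult (limma, adjusted p = 0.000276 and 0.00163). Chi3l1, a chitinase-like protein, gave 10.3 and 29.7 units at E19, 54.9 and 39.6 units at P2, and 181 and 256 units in the adult. It was at least 2.15-fold lower at both stages, and its P2 call was lost without either P2 pool or adult pool 2 (adjusted p up to 0.101, limma). The receptor for the complement fragment C5a, C5ar1, reached 108 and 120 units at E19 and 186 and 196 units at P2, with 66.4 and 70.8 units in the adult. Its level was at least 1.14-fold and 1.91-fold above the adult at E19 and P2 (limma, adjusted p = 0.00292 and 0.000489).

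**Figure D4:**
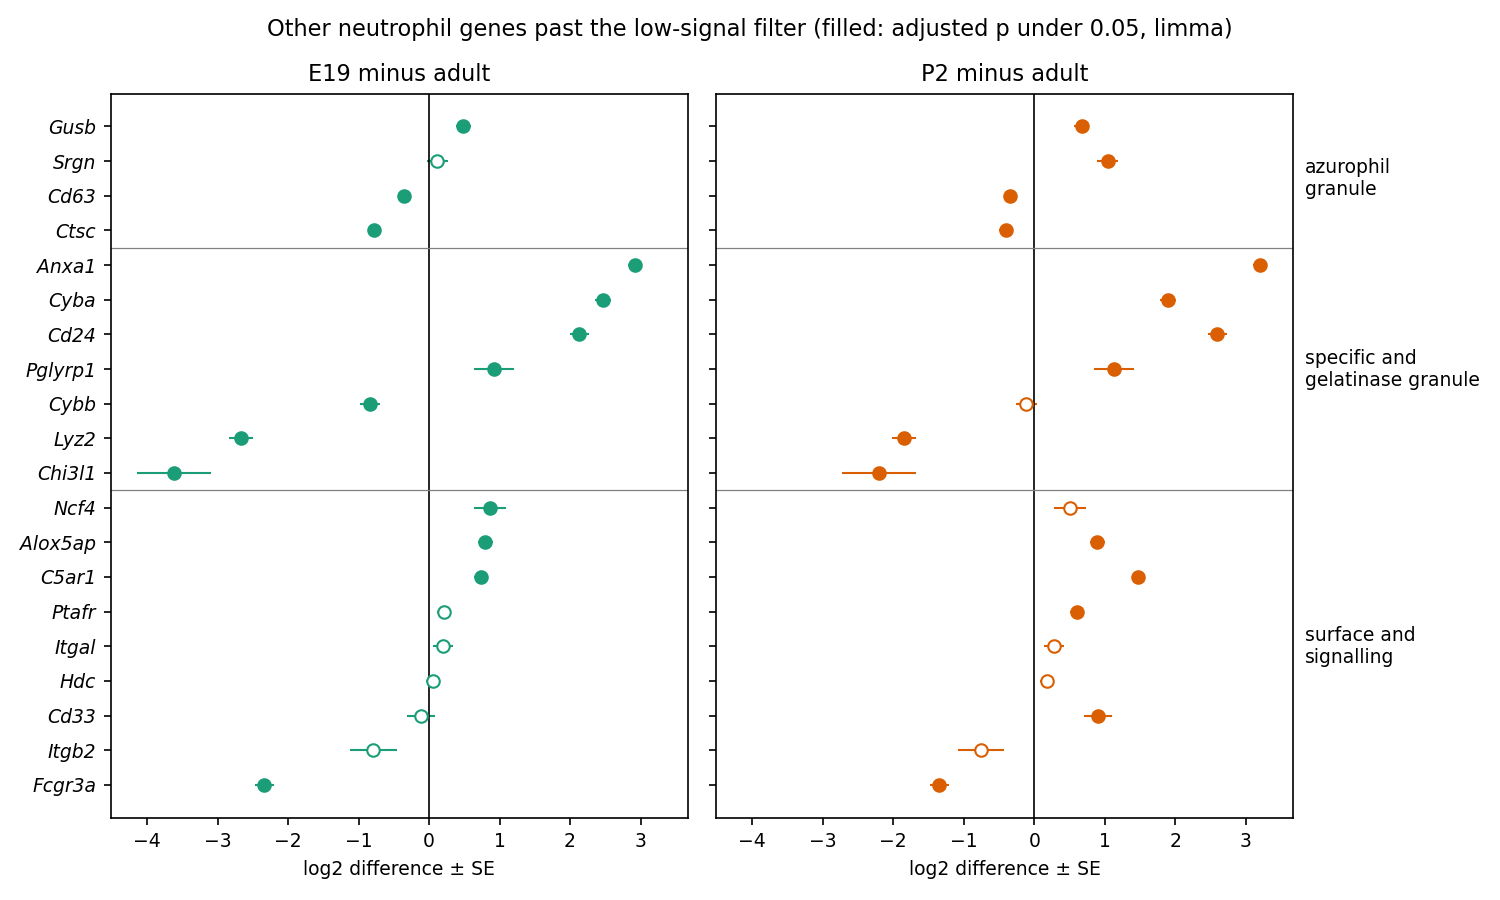
Log2 difference ± SE (limma, 2 pools a stage) of the 20 other neutrophil genes tested, E19 minus adult on the left and P2 minus adult on the right, grouped by granule class; filled points had an adjusted p under 0.05. Anxa1, Cyba and Cd24 lie farthest to the right and Chi3l1, Lyz2 and Fcgr3a farthest to the left in both panels.

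Relatives of the members differed widely among themselves. Of 13 S100 and stefin relatives tested, 5 exceeded and 5 fell below the adult at E19, 4 exceeded and 1 fell below it at P2, and 1 was higher and 1 lower at P2 than at E19. As shares these were 38.5% and 38.5% at E19, beside 30.4% and 24.2% of all probe sets, and 30.8% and 7.69% at P2, beside 27.4% and 21.8%, so that the share above the adult at P2 was near that of all probe sets. S100a11, which binds annexins, gave 5637 and 7113 units at E19, 7306 and 6821 units at P2, and 187 and 141 units in the adult. It was 39.0-fold and 43.5-fold above the adult (limma, adjusted p = 8.83e-05 and 0.000101), with no P2 minus E19 call (log2 difference 0.16 ± 0.18, SE). S100a10, the partner of annexin A2, was 5.64-fold and 5.33-fold above the adult (limma, adjusted p = 9.62e-05 and 0.000136). S100a1 went the other way, with a signal 2.09-fold below the adult one at E19 and 2.15-fold below it at P2 (adjusted p = 0.00334 and 0.0037, limma).

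S100a14, an S100 protein of epithelia, had a course closer to that of S100a8 and S100a9. It gave 246 and 298 units at E19, 83.1 and 103 units at P2, and 52.8 and 36.3 units in the adult. It was at least 2.71-fold above the adult at E19 (limma, adjusted p = 0.000738), and at P2, with 1 pool under 100 units, it was at least 2.67-fold below E19 (adjusted p = 0.0293, limma). That second call was lost without any one of the E19 or P2 pools, as were nearly all P2 minus E19 calls over all probe sets. Between the P2 pools S100a14 differed by 1.23-fold only. Stfa3, the one stefin A relative of the list with a probe set of its own, gave 201 and 184 units at E19, 5.27 and 67.5 units at P2, and 5.07 and 15.5 units in the adult. It was at least 1.92-fold above the adult at E19 (limma, adjusted p = 0.0322), a call lost without either E19 or either adult pool (adjusted p up to 0.122). Its probe set is of the kind that can cross-hybridise with related transcripts, and the stefin A genes are close copies, so the signals of Stfa2l2 and Stfa3 may include those of other stefins. S100a4, a neighbour of S100a8 on the chromosome, was under 100 units at E19 (58.9 and 55.5 units) and gave 169 and 175 units at P2, with 143 and 82.0 units in the adult.

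**Figure D5:**
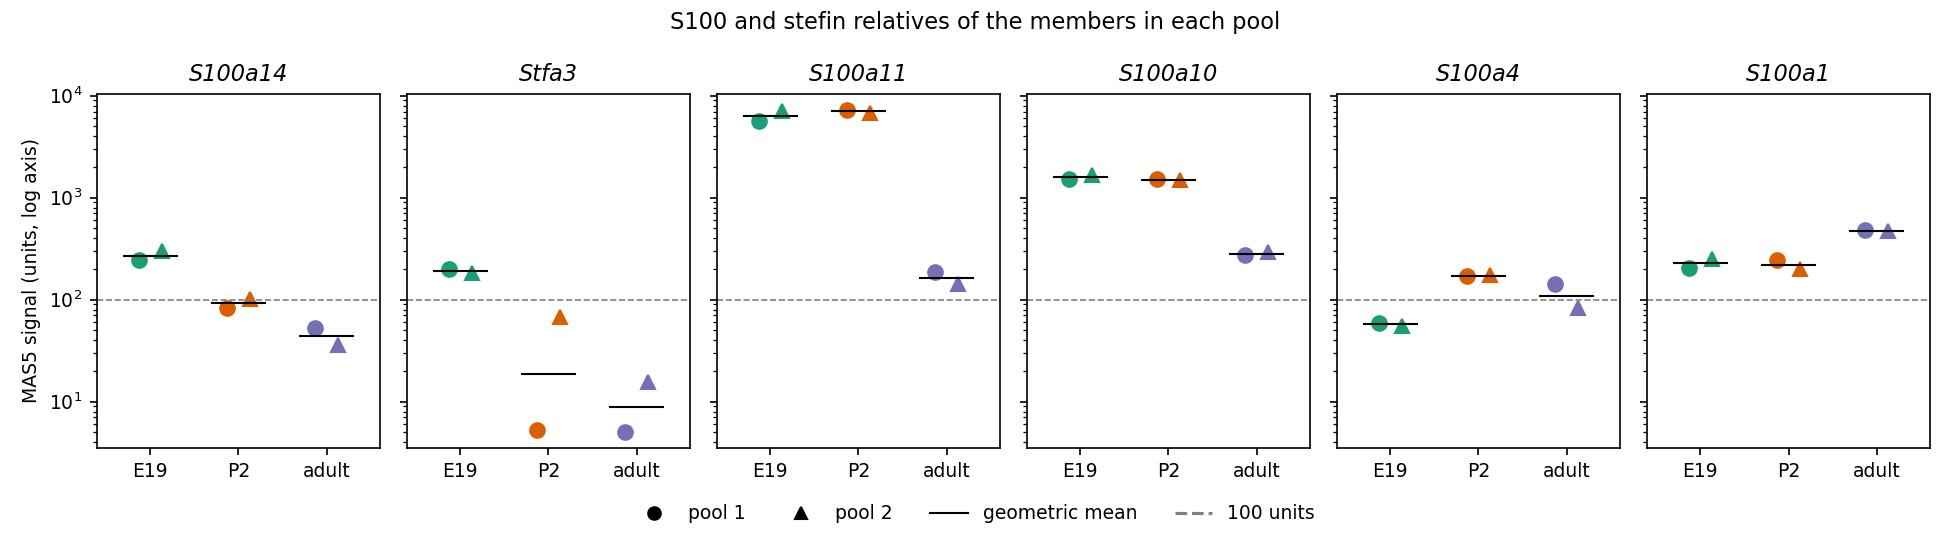
MAS5 signal (arbitrary units, log axis) of 6 relatives of the members in E19, P2 and adult pools; circles are pool 1, triangles pool 2, bars the geometric mean and the dashed line 100 units. S100a14 and Stfa3 are highest at E19, S100a11 and S100a10 are high at E19 and P2 alike, and S100a1 is highest in the adult.

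Fcna, the ficolin of macrophages and the relative of Fcnb, gave 135 and 132 units at E19, 172 and 134 units at P2, and 14.9 and 2.28 units in the adult. It was at least 1.34-fold above the adult at E19 and 1.52-fold at P2 (limma, adjusted p = 0.00908 and 0.00931), the P2 call being lost without P2 pool 1 (adjusted p = 0.0503). Masp1, a serine protease that acts with ficolins, was at least 1.54-fold and 3.12-fold above the adult at E19 and P2 (limma, adjusted p = 0.00203 and 0.000515). Of 5 ficolin and lipocalin relatives tested, 3 exceeded and 1 fell below the adult at E19, as did 4 and 1 at P2. As shares these were 60% and 20% at E19, beside 30.4% and 24.2% of all probe sets. At P2 they were 80% and 20%, beside 27.4% and 21.8%. Among lipocalins, Ptgds, the prostaglandin D synthase of the meninges and plexus, was lower at both stages, with 8736 and 8907 units at E19, 14549 and 13126 units at P2, and 20262 and 19292 units in the adult. Its highest values were in both adult pools, whereas those of Lcn2 were in the P2 pools and 1 adult pool.

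Among genes whose products interact with the member proteins, 6 were tested. Of these, 2 exceeded and 2 fell below the adult at E19, and likewise at P2. Each count was a 33.3% share, beside a background over all probe sets of 30.4% above and 24.2% below for E19. For P2 that background was 27.4% and 21.8%, so with 6 genes tested none of these counts stood out from it. Slc22a17, a cell surface receptor for the Lcn2 protein, was abundant in every pool, with 9734 and 10063 units at E19, 11181 and 10687 units at P2, and 13422 and 13653 units in the adult. It was lower by 0.45 ± 0.08 on the log2 scale at E19 (SE, limma, adjusted p = 0.00791), a call lost without E19 pool 1 (adjusted p = 0.0553). Tlr4 and Ager, which are calprotectin receptors, were under 100 units on every array. Ly96, the co-receptor of Tlr4, was 1.66-fold lower at E19 than in the adult (limma, adjusted p = 0.00267). Bsg, also among these interacting genes, was abundant in every pool. It gave 14917 and 14556 units at E19, 14995 and 14300 units at P2, and 16874 and 15168 units in the adult, with no call against the adult. Serpinb1a, a cytosolic inhibitor of elastase, exceeded its adult signal 2.11-fold at E19 and 2.00-fold at P2 (adjusted p = 0.00115 and 0.00181, limma).

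Transcription factors and cytokines of granulocyte formation fell into genes well above and genes within the low range. Myb, a factor of haematopoietic progenitors also used by ciliating epithelia, gave 967 and 1107 units at E19, 1142 and 1166 units at P2, and 103 and 85.3 units in the adult. It was at least 10.2-fold and 11.4-fold above the adult, where 1 of 2 pools was under 100 units (limma, adjusted p = 9.39e-05 and 0.000116). Runx1, a factor of definitive haematopoiesis, was at least 4.10-fold and 3.15-fold above the adult, again with 1 adult pool under 100 units (adjusted p = 0.000559 and 0.00122, limma). Cebpa, which commits progenitors to the granulocyte line, Cebpe and Gfi1, which act during maturation, and the granulocyte growth factor Csf3 were under 100 units on every array. Of 10 factors tested, 5 were higher and 1 lower at E19, and 6 were higher and 0 lower at P2, each against the adult (limma, with 1 lower at P2 at an unadjusted p under 0.05). As shares these were 50% and 10% at E19, beside 30.4% and 24.2% of all probe sets. At P2 they were 60% and 0%, beside 27.4% and 21.8%. The neutrophil attractants Cxcl1, Cxcl2 and Cxcl6 were under 100 units on every array. Cxcl12, the retention signal of marrow neutrophils and a widespread stromal chemokine, gave 827 and 894 units at E19, 1429 and 1379 units at P2, and 242 and 265 units in the adult. It was 3.40-fold and 5.55-fold above the adult at E19 and P2 (limma, adjusted p = 0.000223 and 0.000136).

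Markers of other blood cells were read on the same arrays. Of 9 erythroid genes tested, 8 were higher at E19 and 7 at P2 than in the adult, and 3 were lower at P2 than at E19. These shares were 88.9%, 77.8% and 33.3%, beside 30.4%, 27.4% and 3.5% of all probe sets. The list summed to 30293 to 31997 units at E19, 24967 to 25332 units at P2, and 17400 to 17402 units in the adult, with Gata1, Klf1 and Rhag under 100 units on every array. Hbe1, an embryonic globin, gave 3170 and 2468 units at E19, 176 and 185 units at P2, and 28.0 and 7.46 units in the adult. Of 13 macrophage and monocyte genes tested, 4 were higher and 3 lower at E19, and 9 were higher and 0 lower at P2 than in the adult (limma, with 0 lower at P2 at an unadjusted p under 0.05 also). The shares at E19, 30.8% higher and 23.1% lower, were close to the 30.4% and 24.2% of all probe sets, whereas at P2 69.2% were higher, beside 27.4%. That list summed to 4538 to 4597 units at E19, 5754 to 6457 units at P2, and 2441 to 2471 units in the adult, with Cx3cr1, Ccr2 and Trem2 under 100 units on every array. Mrc1, the mannose receptor of border macrophages, was at least 7.44-fold and 7.70-fold above the adult at E19 and P2 (limma, adjusted p = 0.000357 and 0.000453). It gave 794 and 698 units at E19 and 39.7 and 25.7 units in the adult. Lyve1 gave 1055 and 1119 units at E19 and 35.5 and 44.5 units in the adult. Mrc1 and Lyve1 made up most of the excess of the sum at E19. Csf1r, Cd68, Aif1, C1qa, Tyrobp and Ptprc were called in neither direction at E19 against the adult. Cd14, a monocyte co-receptor, gave 245 and 234 units at E19, 608 and 680 units at P2, and 294 and 318 units in the adult, with the highest values at P2. The lymphocyte list had 14 of 16 genes under 100 units on every array. The part of these cells in the member signals was not tested.

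By the root mean square difference of floored, centred log2 values over the 6 arrays, S100a9 and Stfa2l2 were 0.29 apart, S100a8 was 0.41 from each, and Lcn2 was 1.58 to 1.95 from all 3. The mean profile of the members represented them poorly, since 1235 of 10330 genes lay nearer to it than S100a8 and 10154 lay nearer than Lcn2. The 10 genes nearest to that mean, by distances of 0.08 to 0.13, were Dtwd2, Actmap, Peli1, Adamts5, Hmgxb4, Tmed5, Raver2, Pbx2, Pcif1 and Cstf3. The nearest to each gene were Cdh22, Egfl6 and Slc13a3 for Stfa2l2 (0.12 to 0.22), Penk, Flrt1 and Celf4 for S100a8 (0.04 to 0.10), and Wscd1, Mfsd10 and Slc13a3 for S100a9 (0.17 to 0.28). No gene came as near to Lcn2, for which Syngr1, Dhrs7c and Psmb8 lay 0.63 to 0.75 away. Among the neighbours of S100a9, Mfsd10 also shared the split of the P2 pools, with 49.1 units in pool 1 and 157 units in pool 2.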

How the data were processed

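Lateral ventricle choroid plexus RNA of Sprague-Dawley rats (E19, P2 and adult, 2 pools each, 100 ng per array) was hybridised to Affymetrix rat genome arrays. The deposited values are intensities, which the authors computed with the MAS5 algorithm in Affymetrix Expression Console (versions not given in the sources used here). MAS5 scales each array as a whole, so that a shift in most transcripts alters every value, and low signals are noisy. Of 31099 probe sets, 57 controls were left out, and 20832 were annotated to 1 gene, 436 to several and 9780 to none. Where several probe sets named a gene alone, the one with the highest mean over the arrays stood for it. Probe sets with a stage mean of 100 units or more were fitted on the log2 scale with limma 3.58.1 (lmFit, eBayes, 3 stage means, 6 arrays), and Benjamini-Hochberg adjusted p under 0.05 was called. The fit was tested on simulated data. Alternatives changed the filter, the scaling, a floor at 100 units, the replicate block, the variance model, the probe set rule and the arrays used. The members and the gene lists were chosen with earlier results of these data known. Named genes were the members, tested genes of the neutrophil-related lists with the largest changes first, defining markers and the 3 genes with the largest differences of other cell types, and the genes nearest in profile; genes named beyond these are marked. Number of arrays limits the precision.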

Additional observations from a re-analysis of the deposited data

Results flagged for a closer look

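For 14 of 51 listed genes that were examined for it, the difference from the adult was not the same at E19 and at P2 by the test of that difference itself (limma, P2 minus E19, adjusted p under 0.05). Over all probe sets 3.62% were higher and 3.5% lower at P2. The 51 genes were named with the largest changes first, so their count cannot be weighed against that share. Fcgr3a is in the count, though values under 100 units at both stages leave its order unresolved. The log2 difference was 0.93 for Srgn, 0.99 for Fcgr3a (under 100 units at both stages), 0.74 for C5ar1, 1.02 for Cd33 and 1.59 for S100a4 (both under 100 units at E19, so at least 1.53-fold and 1.72-fold), 1.02 for Masp1, 0.65 for Ptgds, 0.71 for Cxcl12, 1.42 for Cd14 and 1.20 for Pf4, a platelet and macrophage chemokine. It was -1.55 for S100a14 and -2.65 for Hbg1, a globin gene (each with 1 P2 pool under 100 units, so at least 2.67-fold and 5.35-fold lower). The difference was -3.96 for Hbe1 and -1.27 for Ahsp, the stabiliser of alpha globin. These calls were lost when 1 pool of E19 or P2 was left out, with the exception of Hbg1 without P2 pool 1. So were nearly all P2 minus E19 calls over all probe sets, so the loss is not particular to these genes. The calls of Srgn and Cd33 were also lost without either adult pool, and that of Masp1 without adult pool 2.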

How the results depend on the processing

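Of 107 calls on 51 listed genes, 69 held without any 1 array and 38 did not, and none changed direction under an alternative. For the 20 other neutrophil genes, the number higher at E19 than in the adult was 8, with 4 under a filter at 200 units, 5 after median centring and 5 with values under 100 units set to 100 (5 to 7 leaving out 1 array). The number lower at E19 ranged from 5 to 7 leaving out 1 array. The number higher at P2 than in the adult was 10, with 6 under the filter at 200 units (8 to 10 leaving out 1 array), and the number lower was 5, with 3 without a filter (2 to 5 leaving out 1 array). The number higher at P2 than at E19 was 4, with 0 without a filter, 7 with values under 100 units set to 100, 7 with the trend and robust variance model and 2 from the 4 arrays of the comparison (0 to 2 leaving out 1 array). The number lower was 0, with 1 under each of the filter at 200 units, the floor at 100 units and the trend and robust model. The causes were not tested.

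The replicate numbers did not pair the pools: pool 1 minus pool 2 correlated at -0.06 between E19 and P2, -0.04 between E19 and the adult and 0.01 between P2 and the adult over 17808 probe sets. With the replicate block, the numbers of other neutrophil genes were 7 above and 6 below the adult at E19, 10 higher and 5 lower at P2, and 0 in either direction for P2 minus E19.

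The median log2 difference of the 5 members measured was 3.45 for E19 minus adult (3.03 to 3.86 leaving out 1 array) and 2.14 for P2 minus adult (2.01 to 2.41), and with values under 100 units set to 100 it was 1.27 and 0.24. For P2 minus E19 it was -1.40 (-2.43 to -0.78 leaving out 1 array). The 2.14 was the value of Lcn2 and the -1.40 that of Fcnb. Lcn2 itself gave 0.05 without adult pool 1 and 4.24 without adult pool 2 for P2 minus adult. The narrow range of that median thus does not show a stable shared change. Lcn2 at E19 minus adult was -0.55, with 1.54 without adult pool 2 and -2.64 without adult pool 1. Fcnb, under 100 units throughout, ranged from -0.32 to 1.75 for E19 minus adult and from -1.99 to 0.62 for P2 minus adult leaving out 1 array, with 0.35 without adult pool 1. With 2 arrays a stage and no detection calls in the values used, differences among signals under 100 units could not be resolved.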
